A study of Mus musculus with 4 samples.

Results

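Lyve1 positive resident macrophages were picked out of single-cell RNA sequencing libraries of the mouse aortic arch by their own transcripts. Expression was counted in UMIs (unique molecular identifiers), short tags added to every mRNA before amplification so that copies of 1 molecule count once. A cell was taken when it held at least 2 UMIs of Lyve1, at least 1 of Csf1r and at least 10 of C1qa, C1qb and C1qc together, with no UMI of Pdgfra or Cdh5 and at most 2 of Myh11. Of the 14148 cells with 200 to 6000 detected genes and at most 15% mitochondrial UMIs, 707 met this rule. They were set against the 1017 other cells that held a UMI of both Csf1r and Ptprc, called other phagocytes here. A closer comparison was made with the 373 cells that passed every step of the rule except that they held no Lyve1 UMI, called Lyve1-negative C1q-positive macrophages, of which 342 were also among the other phagocytes.

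The mice were males, 3 months old at the start, and all carried a floxed Nfe2l2 gene, which encodes Nrf2. In the Nrf2Cdh5tKO mice, Cre driven by the Cdh5 promoter excises exon 5 of that gene. Cdh5 is an endothelial gene, but this Cre is also active in a share of blood-forming cells, so only part of the macrophages may carry the deletion. The controls had the same floxed gene without Cre and are written Nrf2flox/flox. Atherosclerotic mice had a high-fat diet for 21 weeks together with a treatment that is not described here, and normocholesterolemic mice received saline and a standard diet, so that diet stands for both in the comparisons. Aortic arches with their branches and perivascular tissue were digested, and live cells were sorted. Each condition was 1 library made from a pool, of 4 mice for each normocholesterolemic condition and 3 for each atherosclerotic one, so there was no replicate within a condition. All runs of 4 values below have the same order, which is the normocholesterolemic Nrf2flox/flox library, the library labelled normocholesterolemic Nrf2Cdh5tKO, the atherosclerotic Nrf2flox/flox library and the library labelled atherosclerotic Nrf2Cdh5tKO.

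Resident macrophages of the arterial wall settle there early in life and largely maintain themselves, in contrast to macrophages that arise from blood monocytes. Those with Lyve1, a receptor for the matrix sugar hyaluronan that is also found on lymphatic endothelium, lie mostly in the adventitia around vessels, near smooth muscle and collagen. They are known for the uptake of debris, haemoglobin and matrix through scavenger receptors, and for low MHC class II compared with their Lyve1-negative neighbours. Nrf2 is a transcription factor that turns on genes against oxidative stress, among them the haem-degrading enzyme Hmox1, the glutathione synthesis genes Gclc and Gclm, the quinone reductase Nqo1 and the thioredoxin reductase Txnrd1.

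The targeted gene was read first. Nfe2l2 in members was at 409.5, 452, 351 and 366 UMIs per 1000000 UMIs of the same cells (CPM) in the 4 libraries. Neither library labelled Nrf2Cdh5tKO was more than 2-fold below its Nrf2flox/flox counterpart, with log2 ratios of 0.14 (0.01 to 0.28) and 0.06 (-0.25 to 0.38) in the normocholesterolemic and the atherosclerotic pair. The parentheses give the exact 95% interval of the split of UMIs, which covers counting error only. Among cells gated as endothelium (65, 37, 24 and 20 cells), where this Cre is active, the level was 174, 386, 172 and 391 CPM and thus higher under both Nrf2Cdh5tKO labels. Reads were taken from transcript 3′ ends, and whether the excised part holds the counted end is not given in the sources used here. These libraries are therefore named by their labels throughout.

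The libraries contributed 357, 176, 47 and 127 members. Their UMIs summed to 3762858, 1412740, 315949 and 1023418, so that values from the atherosclerotic Nrf2flox/flox library carry the largest counting error. Median UMIs per member were 9942, 7167.5, 6150 and 7612, and median detected genes were 2773, 2487, 2320 and 2453. The median mitochondrial share of UMIs was 2.12%, 3.56%, 3.33% and 2.58%, lowest in the normocholesterolemic Nrf2flox/flox library, and its part in the differences between libraries was not tested. Over all libraries the median was 8888 UMIs in members, 11883 in other phagocytes and 9914 in Lyve1-negative C1q-positive macrophages. The doublet caller Scrublet marked 6 members (0.849%) against 265 of all kept cells (1.87%). Between libraries 22 barcodes were shared, of which 1 was a member's.

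Members made up 41.0% of phagocytes (members and other phagocytes together, 1724 cells). By library the share was 40.2% (exact Clopper-Pearson 95% interval 37.0 to 43.5), 46.9% (41.8 to 52.1), 29.4% (22.4 to 37.1) and 42.2% (36.5 to 48.0). The share was lowest in the atherosclerotic Nrf2flox/flox library, whose interval overlapped those of its labelled Nrf2Cdh5tKO counterpart and of the normocholesterolemic Nrf2flox/flox library by a narrow margin and did not overlap that of the normocholesterolemic library labelled Nrf2Cdh5tKO. Of all kept cells, members were 4.52%, 5.92%, 4.61% and 5.6%. With 1 pool per condition these shares could not be tested, and differences between mice or dissections cannot be told apart from diet or genotype.

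The genes of the rule are a description of the choice. Lyve1 (ENSMUSG00000030787, chr7:110850607-110863239, minus strand, mouse build GRCm38) stood at 1131, 1302, 1507 and 1264 CPM in members, with a median of 9, 7, 6 and 7 UMIs per cell and a range of 2 to 76. Just inside the rule were 63 cells with exactly 2 Lyve1 UMIs, and just outside were 94 cells with 1 UMI that met every other step. C1qa, a subunit of the complement component C1q, was at 6037, 6456, 5751 and 6470.5 CPM. Csf1r, the receptor for the macrophage growth factor CSF1, was at 1034, 1355, 1649 and 1145 CPM. A Ptprc UMI (CD45, carried by all leukocytes) was found in 88.1% of members although the rule did not ask for it.

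The label was checked against the remaining markers fixed for these cells, which are Folr2, Cd163, Cd209f and Maf. Folr2 (ENSMUSG00000032725, folate receptor beta) had a UMI in 96.9% of members, 32.9% of other phagocytes, 37.5% of Lyve1-negative C1q-positive macrophages and 6.03% of smooth muscle cells, which should lack it and had a median of 15389.5 UMIs. Cd163 (ENSMUSG00000008845), the scavenger receptor for haemoglobin bound to haptoglobin, was found in 82.2%, 33.7%, 41.8% and 1.58% of the same sets. Maf (ENSMUSG00000055435), a transcription factor of macrophage self-renewal and identity, was found in 95.9%, 55.9%, 70.0% and 25.9%. Cd209f (ENSMUSG00000051906), a C-type lectin, was found in 34.1%, 8.85%, 6.97% and 3.05%, so most members held no UMI of it at this depth. Of the defining genes of lymphatic endothelium, the other cell type with Lyve1, members held 0 UMIs of Flt4, Mmrn1 and Reln, but so did other phagocytes. Prox1, its transcription factor, had a UMI in 3.11% of members, 1.28% of other phagocytes and 0.305% of smooth muscle cells, and Pdpn in 2.55%, 8.36% and 3.90%. Nrp2, which macrophages also express, was found in 66.1%, 35.4% and 5.30%. Pan-macrophage genes were present, with Cd68 in 90.5%, Adgre1 in 88.5% and Itgam in 62.4% of members. In the Lyve1-negative set they were found in 91.2%, 85.3% and 56.8%. The rule asked for Csf1r and C1q and for no Cdh5, so macrophage genes and few endothelial genes were largely set by it. The label rests on Folr2, Cd163, Cd209f and Maf, which the rule did not use. Each was found in a larger share of members than of the other sets.

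Against other phagocytes, members were higher in Cd209 lectins, Folr2, Cd163, Timd4, Fcna and the chemokine Ccl8. Of 18 listed C-type lectins tested 8 were higher and 3 (Clec4b1, Clec4d and Clec4e) lower, with a median log2 difference of 0.59, and of 17 scavenging and efferocytosis genes 10 were higher and 4 (Axl, Havcr2, Scarb1 and Pparg) lower, with a median of 1.23. Of the listed markers tested, 7 of 7 for monocytes and 4 of 4 for neutrophils and mast cells were lower in members. Lower too were 3 of 5 for dendritic cells and 6 of 6 for T and NK cells. For fibroblasts 8 of 8 and for smooth muscle 6 of 7 were lower, and no marker of these lists was higher. Of 9533 genes tested, 17.2% were called in either direction at an adjusted p under 0.05 and at least 2-fold (edgeR's quasi-likelihood test on UMIs summed per library, with the library as a block and Benjamini-Hochberg adjustment), 567 higher (5.95%) and 1074 lower (11.3%). The p-values describe how even a difference was over these 4 pools. Since the cells were chosen by Lyve1 and C1q, genes that accompany them had to differ, and the calls describe the chosen cells. The limits on Pdgfra, Cdh5 and Myh11 were not applied to other phagocytes, of which 16.03% held a Pdgfra UMI and 19.4% a Lyve1 UMI. Against the Lyve1-negative set, which met those limits, none of 8 fibroblast and 6 smooth muscle markers tested was lower, and 1 (Mylk) was higher. The part of RNA from these cell types in the 1074 lower genes was not tested.

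Folr2 was at 1121, 1033, 988 and 983 CPM in members and 115, 178, 45.9 and 142 in other phagocytes (log2 fold change 3.17, SE 0.239, edgeR adjusted p = 9.49e-07). The 2 sets did not overlap. Cd209f was at 462, 357, 569.7 and 482 against 28.7, 15.2, 29.1 and 49.9 CPM (log2 fold change 3.95, SE 0.197, edgeR adjusted p = 6.40e-08), which was the highest fold change among the named genes. Timd4, a receptor for phosphatidylserine on dying cells and a marker of long-lived resident macrophages, was at 145, 179.8, 206 and 185 against 10.97, 21.2, 18.1 and 13.01 CPM (log2 fold change 3.51, SE 0.165, edgeR adjusted p = 4.57e-08). Fcna, ficolin A, a secreted lectin that recognises microbial sugars, was at 176.2, 287, 187 and 213 against 19.2, 39.2, 12.9 and 22.1 CPM (log2 fold change 3.19, SE 0.153, edgeR adjusted p = 5.04e-08). Each of these genes was higher in members in all 4 libraries. Ednrb, the endothelin receptor type B, was at 153, 231, 392 and 205 against 13.1, 36.4, 25.2 and 35.6 CPM (log2 fold change 3.11, SE 0.202, edgeR adjusted p = 3.51e-07).

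Ccl8, a chemokine that attracts monocytes and lymphocytes, was at 386, 332, 940.0 and 1433 CPM in members and 16.7, 58.4, 112 and 109.7 in other phagocytes (log2 fold change 3.42, SE 0.281, edgeR adjusted p = 1.80e-06). Its values in members were higher in both atherosclerotic libraries than in both normocholesterolemic ones. Chp2 (2.89), Reps2 (2.84) and Gm15655 (2.80) completed the 12 highest log2 fold changes, together with Cd209b, Cd209d and Cd209g. At the other end were genes of inflammatory monocytes and neutrophils, with log2 fold changes of -6.61 for Ly6c2, -6.51 for Plac8, -6.37 for Chil3, -6.44 for S100a8, -6.82 for S100a9 and -6.15 for Retnlg. Napsa (-6.51) and the integrin Itgax (-6.16), known from dendritic cells, were lower too. Mmp12, the macrophage elastase, had no UMI in members and 2399 in other phagocytes, which set against a floor of 3 UMIs over all members makes it at least 374-fold lower.

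**Figure D1:**
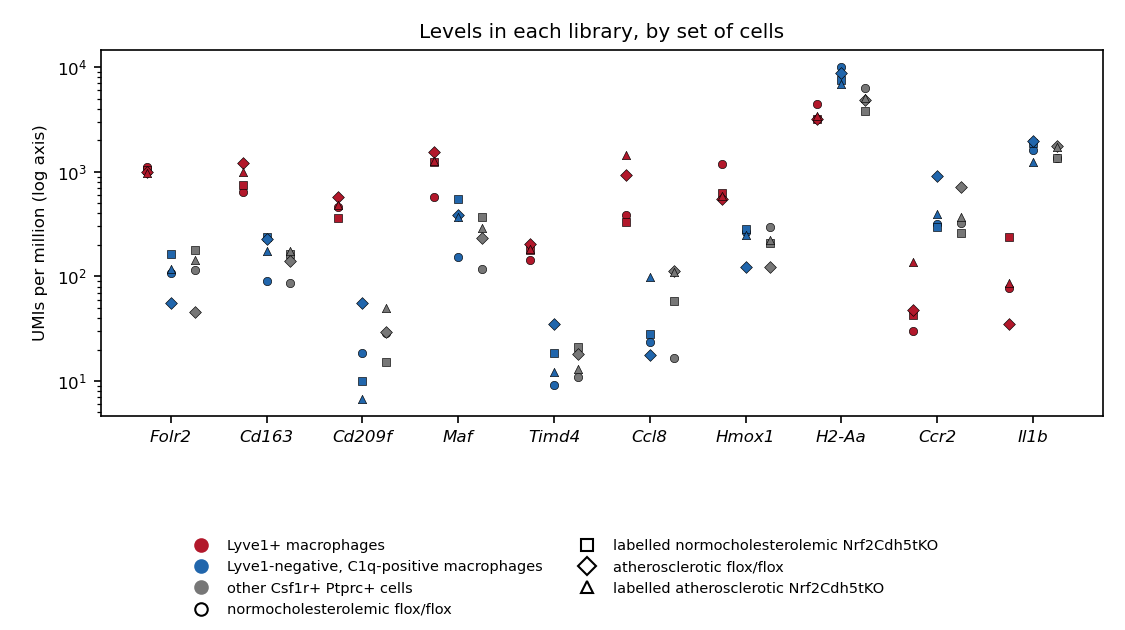
Level of 10 genes in UMIs per 1000000 (CPM, log axis) in members (red), Lyve1-negative C1q-positive macrophages (blue) and other phagocytes (grey), with 1 point per library and the library given by the marker's shape. Folr2, Cd163, Cd209f, Maf, Timd4, Ccl8 and Hmox1 were higher in members than in both other sets, while H2-Aa was below the Lyve1-negative set and Ccr2 and Il1b were low.

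Against Lyve1-negative C1q-positive macrophages, which share the C1q and Csf1r gate, fewer genes differed, and Cd209 lectins again led the higher ones. Of 7321 genes tested, 277 were higher in members (3.78%) and 322 lower (4.4%), 8.18% in either direction. Resident macrophage genes were higher almost without exception, as 27 of the 30 listed genes that were tested passed higher and none lower, with a median log2 fold change of 1.90 beside 0.00 for all genes tested. The same list gave 27 higher and none lower of 30 against other phagocytes, with a median of 2.32 beside 0.01. Gfra2 (log2 fold change -0.22) and Fcrls (-0.05) were among the 3 that did not pass against the Lyve1-negative set.

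Cd163 was at 639.9, 741, 1199.6 and 995 CPM in members against 90.9, 237, 229 and 174 in the Lyve1-negative set (log2 fold change 2.20, SE 0.181, edgeR adjusted p = 1.63e-06). Maf was at 578, 1241, 1560.4 and 1259.5 against 154, 552, 389 and 369.6 CPM (log2 fold change 1.56, SE 0.156, edgeR adjusted p = 9.48e-06). Both were separated within each library, although for Maf the lowest member value, in the normocholesterolemic Nrf2flox/flox library, was close to the highest Lyve1-negative one. Mrc1, the mannose receptor, was at 1919, 2346, 3434 and 2055 against 539.9, 1001, 964 and 720.3 CPM (log2 fold change 1.45, SE 0.150, edgeR adjusted p = 1.24e-05). Other resident genes passed with log2 fold changes of 1.96 for F13a1, the coagulation factor XIII A chain, 1.93 for Cbr2, 2.38 for Gas6, a bridge between dying cells and their receptors, 1.87 for Stab1, 1.89 for Clec10a, 1.54 for Selenop, 1.27 for Vsig4 and 1.11 for Pf4. Vsig4 rested on few cells, since 12.02% of members held a UMI.

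**Figure D2:**
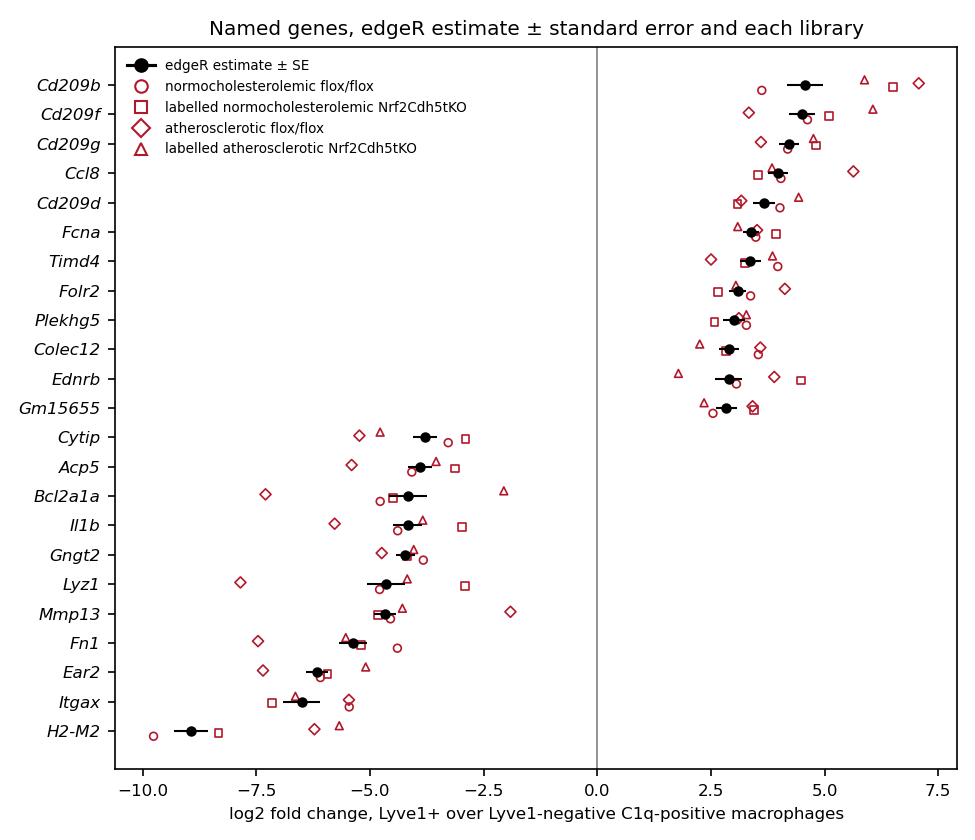
Log2 fold change of members over Lyve1-negative C1q-positive macrophages for 23 named genes, with the edgeR estimate and its standard error in black and each library's own log2 value as an open red shape. The Cd209 genes, Ccl8, Fcna, Timd4 and Folr2 lie between 3.09 and 4.57 and H2-M2 at -8.93. Library values where a sum was 0 rest on the prior count, and Mmp12, with 0 UMIs in members, is not drawn.

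The Cd209 genes, C-type lectins that bind sugars on pathogens and host proteins, held the 3 highest fold changes of the named genes, those of Cd209b, Cd209f and Cd209g. Cd209b was at 71.0, 42.5, 187 and 95.8 CPM in members and 5.62, 0, 0 and 1.12 in the Lyve1-negative set (log2 fold change 4.57, SE 0.399, edgeR adjusted p = 2.87e-06). Cd209g was at 216, 132, 168 and 164 against 11.7, 4.26, 12.6 and 5.58 CPM (log2 fold change 4.21, SE 0.222, edgeR adjusted p = 3.67e-08), and Cd209d at 108, 39.6, 259.5 and 131 against 6.49, 4.26, 27.6 and 5.58 CPM (log2 fold change 3.67, SE 0.247, edgeR adjusted p = 3.15e-07). In Cd209b and Cd209d the atherosclerotic Nrf2flox/flox library was the highest. These genes are neighbours on chromosome 8, within 3743397 to 4137707 in GRCm38, and are close copies of each other, so the split of reads among them is uncertain. Cd209a was called too (log2 fold change 2.27), but at 42.3, 14.2, 85.5 and 44.0 against 6.49, 15.6, 5.02 and 3.35 CPM it was not higher in every library. Of 18 listed C-type lectins tested, 7 were higher and 3 lower (Clec4b1, Clec4d and Clec4e, which are known from inflammatory myeloid cells), with a median of 0.27.

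Promoter windows were read for the genes that stood highest, because Maf was among the markers that were higher with them. In the 250 bases before to 50 bases after the start (RefSeq, GRCm38.p6), the letters TGCTGA or their reverse complement TCAGCA, the core of the MAF recognition element, were found in 6 of the 12 named higher genes that have a promoter in the table, against 21.7% of 27025 genes. Of 22 resident macrophage genes with a promoter, 9 had it (40.9%). These counts are not separate, since Timd4, Fcna, Folr2, Ednrb and Cd209d are in both. Cd209b, Cd209f and Cd209g are not among the genes with a match. A match is a description of the letters and not of binding. The windows of 30 bases below are shown because they belong to genes the results turn on. They are written 5′ to 3′ on the strand of the gene, with the match in capitals. The Folr2 window lies at chr7:101845333-101845362 with the match 19 to 14 bases before a start inside the gene (chr7:101839988-101857194, minus strand). Another Folr2 match, not shown, lies at chr7:101857393-101857422, 220 to 215 bases before the start at the gene's 5′ end. The Fcna window lies at chr2:25628064-25628093 with the match 107 to 102 bases before the start. The Ccl8 window lies at chr11:82115021-82115050 with the match 152 to 147 bases before it, and the Timd4 window at chr11:46810743-46810772 with the match 44 to 39 bases before it.
Folr2: gaagaaagcaagTGCTGAatggggatattt
Fcna: ccgaatccccagTGCTGActgggaaagtgt
Ccl8: gcatcttattctTGCTGAgctgccttccag
Timd4: cgtcccaccctgTCAGCAggaattgtgata

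Iron and haem handling was higher in part. Of 18 listed genes tested against the Lyve1-negative set, 7 were higher and none lower, with a median of 0.71. Hmox1, which degrades haem, was at 1194, 627, 544 and 580.4 CPM in members and 266, 284, 123 and 248 in the Lyve1-negative set (log2 fold change 1.51, SE 0.180, edgeR adjusted p = 4.57e-05). The normocholesterolemic Nrf2flox/flox library stood highest in members. Slc40a1, ferroportin, which exports iron, was at 13.3, 63.0, 63.3 and 14.7 against 2.16, 2.84, 17.6 and 5.58 CPM (log2 fold change 2.39, SE 0.384, edgeR adjusted p = 0.000566), so that its level in members differed several-fold between libraries. Cp, the ferroxidase ceruloplasmin (1.84), Tfrc, the transferrin receptor (1.54), Trf, transferrin (1.28) and Ncoa4, the receptor that delivers ferritin for breakdown (1.10), were also higher. Fth1, the ferritin heavy chain, had a log2 fold change of -0.23 that did not pass.

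Uptake receptors and opsonins were mixed. Of 16 listed scavenging and efferocytosis genes tested, 6 were higher (Stab1, Mrc1, Timd4, Gas6, Colec12 and Cd163) and 3 lower (Axl, Havcr2 and Pparg), with a median of 0.90. Gas6 was at 509, 838, 1051 and 736 CPM in members and 81.8, 214, 108 and 142 in the Lyve1-negative set, whereas its receptor Axl had a log2 fold change of -1.51. Mertk, the other efferocytosis receptor of this family, did not pass here (0.97) and did against other phagocytes (1.80). Colec12, a scavenger receptor with a collagen stalk, was at 103, 144, 136 and 108 against 8.65, 19.9, 10.0 and 22.3 CPM (log2 fold change 2.90, SE 0.227, edgeR adjusted p = 1.02e-06). Of 12 complement genes 3 were higher, among them C4b (2.30) and Vsig4, a receptor for C3 fragments, and Itgax was lower.

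Of 18 chemokine genes tested, 5 were higher and 3 lower. Ccl2 was at 2527, 2103, 1655 and 1905 CPM in members and 1071, 1138, 354 and 644 in the Lyve1-negative set (log2 fold change 1.31, SE 0.184, edgeR adjusted p = 0.000198). Ccl7 was at 1752, 1269.9, 1446 and 1761 against 485, 374, 301 and 497 CPM (log2 fold change 1.77, SE 0.141, edgeR adjusted p = 1.19e-06), and Ccl8 at 386, 332, 940.0 and 1433 against 23.4, 28.4, 17.6 and 99.4 CPM (log2 fold change 3.98, SE 0.223, edgeR adjusted p = 6.09e-08). These are ligands that draw monocytes, and Ccl2, Ccl7, Ccl12 and Ccl8 lie in 1 cluster on chromosome 11 from position 82035571 to 82116799. Ccl12 passed against other phagocytes (2.09) but did not pass the 2-fold limit here (0.99). Ccl24, an eosinophil attractant (1.91), and the platelet chemokine Pf4 were higher, whereas Ccl4 (-1.53), Cxcl3 and Cxcl16 (-1.05) were lower, and the list had a median of -0.06.

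Of 19 chemokine and cytokine receptor genes tested, 7 were lower, 1 was higher and 11 did not pass. Ccr2, the receptor for Ccl2 that monocytes follow out of the blood, was at 30.0, 43.2, 47.5 and 138 CPM in members and 315, 299, 919 and 392 in the Lyve1-negative set (log2 fold change -2.98, SE 0.315, edgeR adjusted p = 1.59e-05). It was found in 7.21% of members, 34.3% of the Lyve1-negative set and 0.548% of smooth muscle cells. Members of the library labelled atherosclerotic Nrf2Cdh5tKO had the highest level among members, still below each Lyve1-negative value. Cx3cr1, the fractalkine receptor (-1.45), Ccrl2, the GM-CSF receptor subunits Csf2ra and Csf2rb, Tgfbr1 and the IL-1 antagonist Il1rn, listed with them, were lower as well. Il4ra, a receptor for IL-4 and IL-13, was the 1 that was higher (1.16), and the list had a median of -0.28.

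Growth factor and matrix genes went both ways, with 6 higher and 7 lower of 24 tested. Igf1, insulin-like growth factor 1, was at 251, 264, 386 and 224 against 134, 95.04, 219 and 77.1 CPM (log2 fold change 1.02, SE 0.164, edgeR adjusted p = 0.000560). Pdgfc (2.13), Bmp2 (1.67), Vegfb (1.34), Hbegf (1.33) and the gelatinase Mmp9 (1.85) were higher too. Among the lower ones were Mmp12, Mmp14, Mmp19, Pdgfb, osteopontin (Spp1, -2.92) and fibronectin (Fn1). Mmp12 had 0 UMIs in members and 1844 in the Lyve1-negative set. It was at least 929-fold lower with the floor of 3 UMIs over all members, and at least 755-fold by the limit of the 95% counting interval. H2-M2, an MHC class I-like gene, had 2 UMIs against 705, a ratio of 533 with a counting interval of 147 to 4408.

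MHC class II genes, which present peptides to CD4 T cells, were lower as a group. They were listed together with Cd40, Cd80 and Cd86, co-stimulatory molecules of T cell activation. Against the Lyve1-negative set 7 of 11 tested genes of this list were lower and none higher, with a median of -1.41, and the 7 were H2-Aa, H2-Ab1, H2-Eb1, H2-DMa, H2-DMb1, Cd74 and Ciita. Against other phagocytes 2 of 12 were lower (H2-DMb1 and H2-DMb2), with a median of -0.62. H2-Aa was at 4447, 3190.2, 3194 and 3388 CPM in members and 10027, 7478, 8808 and 6862 in the Lyve1-negative set (log2 fold change -1.37, SE 0.163, edgeR adjusted p = 4.49e-05). The invariant chain Cd74 was at 11549.5, 8786, 8995 and 10087 against 27811, 21981, 22700.5 and 22195 CPM (log2 fold change -1.41, SE 0.166, edgeR adjusted p = 4.09e-05). For both genes the highest member value was below the lowest Lyve1-negative one. Ciita, the transactivator of these genes, was lower by the same measure (-1.41).

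Within the members MHC class II was spread over a wide range. UMIs of H2-Aa, H2-Ab1, H2-Eb1 and Cd74 together had a median of 83.7 per 10000 UMIs of a cell, with quartiles at 7.90 and 334. The median was 490 in Lyve1-negative C1q-positive macrophages. Under 10 per 10000 were 28.1% of members (exact 95% interval 24.9 to 31.6) and 8.85% of the Lyve1-negative set, and at 1000 or more were 0 members and 8.85% of that set. When members were divided into those under 30 (265 cells), from 30 to under 300 (248 cells) and at 300 or more (194 cells), Lyve1 went from 1429 to 1312 and 813 CPM, Fcna from 274 to 222 and 105 CPM, and Ccr2 from 9.89 to 39.5 and 114 CPM. In each library Lyve1 was lowest and Ccr2 highest in the range of 300 or more, while Fcna was lowest there in 3 libraries and in the atherosclerotic Nrf2flox/flox library stood at 151, 216 and 181 CPM. Folr2 was nearly level, at 1110, 1150 and 945 CPM. Mgl2, a galactose-type lectin, went up with MHC class II, at 702, 952 and 1379 CPM. Retnla, a cavity macrophage marker, went up more, at 729, 2218 and 5402 CPM, and was highest in the range of 300 or more in each library, and its part in these differences was not tested. Median UMIs per cell were close in the 3 ranges, at 8835, 8337 and 9650.5. These ranges are cuts of a continuous score and not cell types.

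The number of Lyve1 UMIs in a cell went with the same genes. Cells that met the other steps of the rule were divided by their Lyve1 UMIs into 0, 1, 2, 3 to 5, 6 to 9, 10 to 19 and 20 or more, which gave 373, 94, 63, 170, 158, 217 and 99 cells. Folr2 went from 114 to 558, 737, 809, 1002, 1152 and 1435 CPM over these bins, with a wide step between 0 and 1 UMI. Fcna was at 17.9, 71.2, 94.0, 65.1, 154, 196 and 476 CPM, and Timd4 at 13.7, 43.6, 70.5, 91.5, 145, 172 and 273 CPM. Cd163 made its step between 0 and 2 UMIs and was then nearly level over all libraries together, at 145, 478, 715, 659, 768, 798 and 736 CPM. Single libraries went both ways. Between the bin of 2 and that of 20 or more, Cd163 went from 519 to 709, 891 to 640, 1201 to 463 and 805 to 1031 CPM in library order.

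H2-Aa went down over the same bins, at 8840, 6171, 5523, 5548, 4655, 3465 and 1667 CPM. In each library the bin of 20 or more was below that of 0, with 1837 against 10027 CPM, 537 against 7478, 827 against 8808 and 2535 against 6862 in library order. Il1b, the inflammatory cytokine, was far lower from the bin of 2 UMIs on, at 1619, 549, 237, 232, 78.0, 66.0 and 46.2 CPM. Cells with 1 Lyve1 UMI, just outside the rule, were thus between the members and the Lyve1-negative set in Folr2, H2-Aa and Il1b. Depth moved with the bins, since the median UMIs per cell were 7003 in the bin of 1 and 12161 in the bin of 20 or more. When each cell was thinned to 5000 UMIs before it was put in a bin, which left out 227 shallower cells, H2-Aa still went from 8847 CPM without Lyve1 to 2170 at 10 to 19 UMIs and 231 at 20 or more, the last from 13 cells.

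**Figure D3:**
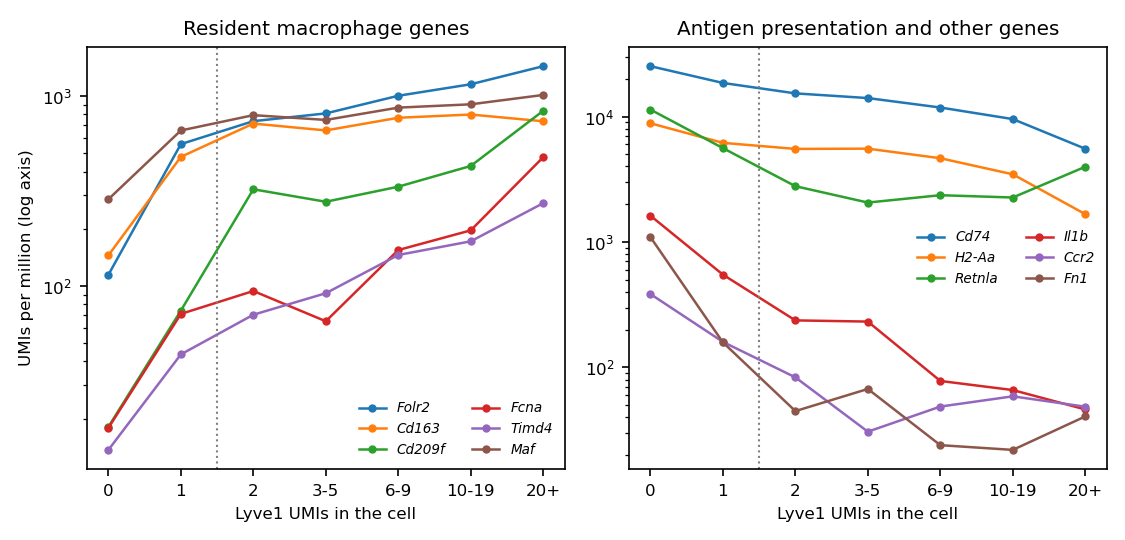
Level in UMIs per 1000000 (CPM, log axis) of 12 genes against the number of Lyve1 UMIs in a cell, over all 4 libraries together, with a dotted line at the rule's limit of 2. On the left, Folr2, Cd209f, Fcna, Timd4 and Maf are highest in the last bin, and Cd163 is nearly level from 2 UMIs on. On the right, Cd74, H2-Aa and Il1b go down, Ccr2 and Fn1 go down and then vary at a low level, and Retnla goes down and up again.

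Inflammatory genes and lipid genes of plaque macrophages were lower in part. Il1b was at 77.3, 239, 34.8 and 87.0 CPM in members and 1623, 1874, 1982 and 1249.6 in the Lyve1-negative set (log2 fold change -4.17, SE 0.313, edgeR adjusted p = 6.96e-07). Il1a (-2.18), Il6 (-1.66), Ptgs2, Pycard and S100a4 were lower with it, and Tlr4, the receptor for bacterial endotoxin, was higher (1.09), giving 1 higher and 6 lower of 20. Of 21 lipid and foam cell genes 7 were lower, among them Lgals3 (-2.51), Fabp5 (-2.56), Lpl (-2.91) and Cd9 (-2.29), and Apoe, the carrier of cholesterol from the cell, was the 1 that was higher (1.19). Trem2, a lipid receptor of foam cells, had a log2 fold change of 0.31 that did not pass.

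Among 28 transcription factors tested, Maf and Tcf4 (1.23) were higher and Bhlhe40 (-3.19) was lower. Lysosomal genes differed little, with 2 lower, Psap among them, and none higher of 22. Of 14 cell cycle genes 4 were lower (Birc5, Pclaf, Mcm5 and Stmn1), with a median of -0.50. Genes of the immediate early and heat shock response, which can be induced when tissue is digested, gave 1 higher (Ier3) and none lower of 20. Their sum in members was 23040.2, 27503, 27701 and 29880.3 CPM, and its part in the results was not tested. Interferon-stimulated genes gave 2 higher (Oas2 and Iigp1) and none lower of 28, and 1 higher and 4 lower of 29 without the library labelled atherosclerotic Nrf2Cdh5tKO.

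Markers of cavity macrophages, cells that line body cavities and can adhere to dissected tissue, are Lyz1, Fn1, Ear2, Retnla and Lpl. All 5 genes were lower in members by the fold change over all libraries together. Fn1 was at 52.6, 9.91, 9.50 and 26.4 CPM in members and 1110.1, 382, 1916 and 1243 in the Lyve1-negative set (log2 fold change -5.37, SE 0.302, edgeR adjusted p = 6.09e-08), and Lyz1 at 139, 41.1, 9.50 and 55.7 against 3832, 312, 2507 and 1017 CPM (log2 fold change -4.64, SE 0.426, edgeR adjusted p = 4.69e-06). Summed over the list, members had 3590, 1249, 1427 and 2550 CPM, of which Retnla made 92.7%. The Lyve1-negative set had 21069, 1692, 21229 and 11226 CPM. Retnla was not lower in every library. In the library labelled normocholesterolemic Nrf2Cdh5tKO it was at 563 CPM in the Lyve1-negative set. Members of that library had 715, 697 and 2636 CPM in the low, middle and high range of MHC class II. A UMI of Lyz1, Ear2 or Fn1 was held by 51.0%, 15.9%, 14.9% and 20.5% of members. Without the cells that held one, in an alternative chosen after seeing the data, 464 members and 185 Lyve1-negative cells were left (10 of the latter in the atherosclerotic Nrf2flox/flox library), and 205 genes were higher and 219 lower of 5779. Then 23 of 29 resident macrophage genes were higher and none lower (median 1.40), and 8 of 11 genes of MHC class II and co-stimulation were lower and none higher (median -1.33). Retnla turned from a log2 fold change of -1.87 to 2.74, and S100a4 from -1.60 to 0.084.

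The same members were then compared between libraries, for which there was no replicate and no test. Ratios are log2 of CPM in the first library over the second, and a gene was counted when it had at least 40 UMIs over the pair and was past 2-fold. For atherosclerotic over normocholesterolemic members, 19.5% of 7297 genes were past 2-fold in the Nrf2flox/flox pair (802 or 11% higher, 620 or 8.5% lower) and 3.29% of 6252 in the pair labelled Nrf2Cdh5tKO (73 or 1.17% higher, 133 or 2.13% lower). The Nrf2flox/flox pair includes the library with 47 members. In both pairs 29 of 6185 genes (0.469%) were past 2-fold in the same direction, 12 higher and 17 lower, and 37 were past it in opposite directions. These pairs share no library.

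The chemokines Ccl8 and Ccl12 and 3 Cd209 lectins were among the genes past 2-fold higher in atherosclerotic members of both pairs. The chemokine list as a whole had 3 past 2-fold higher and 6 lower of 18 in the Nrf2flox/flox pair (median -0.62 beside 0.18 for all genes). It had 5 higher and none lower of 17 in the pair labelled Nrf2Cdh5tKO (median 0.36 beside -0.10). Of the higher ones there, Ccl5 (3.39) and Cxcl10 (1.77) had 88.7% and 89.9% of their atherosclerotic UMIs from 1 cell. Ccl5 had 0.73 without the cell with most of its UMIs in each library. Cxcl10 had -1.11 without the member per library with the highest share of interferon-stimulated genes. Cxcl13, higher in the Nrf2flox/flox pair, rested on 1 cell. C-type lectins had 3 higher and 2 (Clec4b1 and Clec4d, at 6 and 2 UMIs in the atherosclerotic library) lower of 18 in the first (median 0.41) and 3 higher and none lower of 16 in the second (median 0.17). Ccl8, at 386, 332, 940.0 and 1433 CPM, had log2 ratios of 1.28 (1.10 to 1.46) in the Nrf2flox/flox pair and 2.11 (1.96 to 2.26) in the pair labelled Nrf2Cdh5tKO. It was found in 32.8, 39.8, 72.3 and 55.1% of members, against 5.72% of smooth muscle cells. In other phagocytes, whose level was about an order of magnitude lower, the Ccl8 ratios were 2.75 and 0.91. Ccl12, at 306, 405, 1228 and 859.9 CPM, had ratios of 2.004 (1.83 to 2.17) and 1.09 (0.93 to 1.24) in members and -0.27 and 0.45 in other phagocytes. In the atherosclerotic Nrf2flox/flox library 133 of its 388 UMIs (34.3%) came from 1 cell. A Ccl12 UMI was found in 40.6, 35.8, 51.1 and 52.8% of members. Both normocholesterolemic libraries were therefore below both atherosclerotic ones for the 2 chemokines.

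Cd209d, at 108, 39.6, 259.5 and 131 CPM, had ratios of 1.27 (0.91 to 1.62) and 1.72 (1.26 to 2.20). Cd209b followed with 1.40 (0.96 to 1.81) and 1.17 (0.69 to 1.66), and Cd209a with 1.02 and 1.64. The complement gene C2 (1.42 and 1.52), the guanine deaminase Gda (1.27 and 1.35) and Nxpe5 (1.73 and 2.59) were further genes past 2-fold in both pairs, with Ino80b, Slc39a3 and the interferon-stimulated genes Rsad2 and Ifit3, which are described further on.

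Among the genes past 2-fold lower in atherosclerotic members of both pairs was the cytokine Il1b. Il1b, at 77.3, 239, 34.8 and 87.0 CPM, had ratios of -1.15 (-2.17 to -0.29) and -1.46 (-1.81 to -1.11). In the Nrf2flox/flox pair the mean over cells, which weights each cell equally, gave 0.16 for Il1b, so its direction there depended on the summary. Plaur, the urokinase receptor, had -1.36 and -1.16, Il1a had -1.40 (-4.48 to 0.51) and -2.47 (-3.74 to -1.40), the first from 2 UMIs with an interval that includes 0, and the histone gene Hist1h1b had -2.77 and -2.09. Col3a1, Eln, Tpm1 and Ltbp4, genes of fibroblasts and smooth muscle, were in the same group, with fibroblast markers summing to 2213, 1028, 693 and 1189 CPM in members (Gsn 29.1% of it, Pdgfra at 0 by the rule) and smooth muscle markers to 572, 494, 434 and 782 CPM (Acta2 44.0% of it). Their part in the result was not tested.

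Other genes moved far in 1 pair. In the Nrf2flox/flox pair Maf was past 2-fold higher (1.43 (1.29 to 1.57)), with 0.99 in other phagocytes, and 9 of 30 resident macrophage genes were past 2-fold higher and none lower, with a median of 0.46 beside 0.18 for all genes. In the pair labelled Nrf2Cdh5tKO 2 of 30 were higher and none lower, with a median of 0.03 beside -0.10. Markers of other cells moved in the Nrf2flox/flox pair as well. Of cavity macrophage markers 3 of 4 were past 2-fold lower (median -1.90), and of fibroblast markers 7 of 8 (median -1.31). Their part was not tested. Of the genes of MHC class II and co-stimulation none was past 2-fold in any pair. Cxcl13 (4.33) in the Nrf2flox/flox pair rested on 128 UMIs that all came from 1 cell, and Mucl1 (4.32) in the pair labelled Nrf2Cdh5tKO on 508 UMIs from 1 cell. Iigp1, an interferon-inducible GTPase, was higher in the Nrf2flox/flox pair (3.79 (3.28 to 4.30)), with 63.9% of its UMIs in the atherosclerotic library from 1 cell and a ratio of 2.82 without the cell with most of its UMIs in each library. Cell cycle genes had 7 of 13 past 2-fold lower in the Nrf2flox/flox pair and none of 10 in the pair labelled Nrf2Cdh5tKO. The first count rests on 141 UMIs of the list in the atherosclerotic library, where Mki67 had 3 UMIs in 2 cells, and 31.1% of the Mki67 UMIs of its normocholesterolemic counterpart came from 1 cell.

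Some of the largest ratios were also seen in other phagocytes. Gm26778 had 3.74 in members and 2.08 in other phagocytes of the Nrf2flox/flox pair. Ccdc152 had 4.66 and 3.39, and its gene overlaps Selenop on the opposite strand of chromosome 15. Genes of heart muscle were high in 1 library. Nppa, Myl7 and other cardiac genes summed to 6.11, 405, 0 and 0.977 CPM in members and to 12.7, 290, 0 and 1.73 CPM in other phagocytes. In the library labelled normocholesterolemic Nrf2Cdh5tKO, 77.5% of the members' Myl7 UMIs came from 1 cell. For Nppa that share was 36.5%, and 21.6% of members there held a UMI of it. Nppa, Myl7, Myl4, Sln, Tnnt2 and Actc1 were among the named genes of the 2 pairs with the library labelled normocholesterolemic Nrf2Cdh5tKO.

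**Figure D4:**
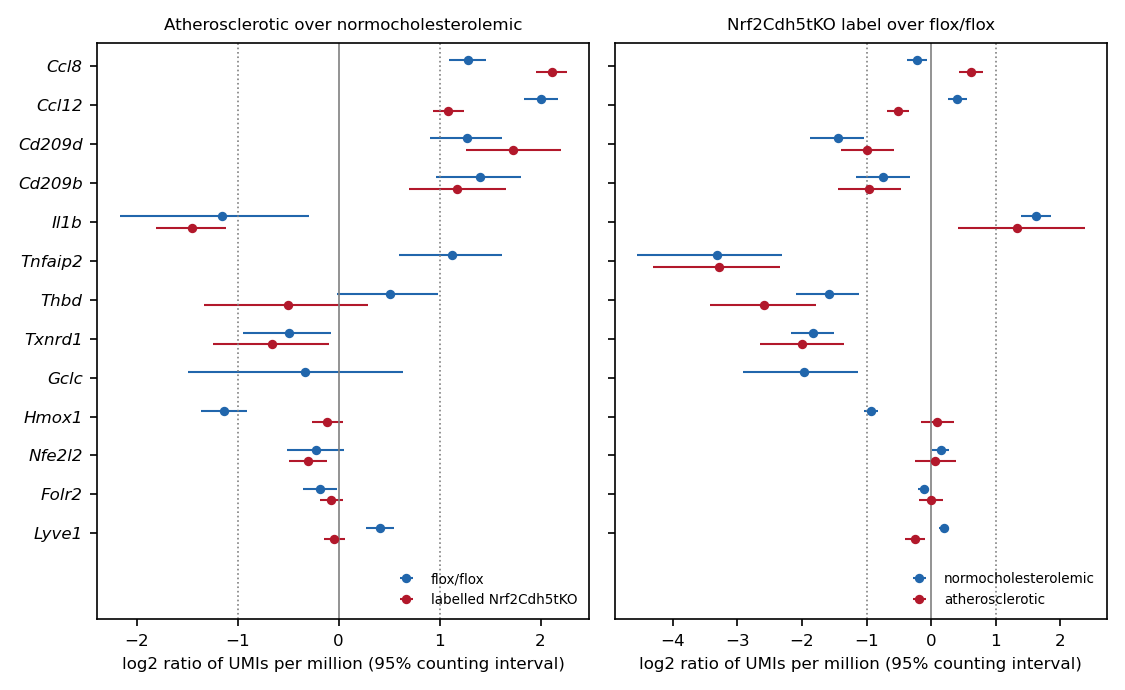
Log2 ratios between libraries with their 95% counting intervals for 13 genes in members, on the left atherosclerotic over normocholesterolemic for each genotype label and on the right Nrf2Cdh5tKO label over Nrf2flox/flox for each diet. Ccl8 and Ccl12 lie above 1 in both diet pairs and Tnfaip2, Thbd and Txnrd1 below -1 in both label pairs, and pairs with under 40 UMIs of a gene have no point.

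For the library labelled Nrf2Cdh5tKO over Nrf2flox/flox, the main question of the study, 8.53% of 8056 genes were past 2-fold in the normocholesterolemic pair (455 or 5.65% higher, 232 or 2.88% lower) and 7.58% of 4405 in the atherosclerotic pair (190 or 4.31% higher, 144 or 3.27% lower). In both pairs 18 of 4400 genes (0.409%) were past 2-fold in the same direction, of which 4 were lower (Tnfaip2, Txnrd1, Thbd and Gadd45g) and 14 higher, and 35 were past it in opposite directions. Markers of other cells moved in these pairs as well. In the normocholesterolemic pair 4 of 4 cavity macrophage markers (median -1.63) and 4 of 8 fibroblast markers (median -0.89) were past 2-fold lower. Of neutrophil and mast cell markers 2 of 2 were lower there, and of T and NK cell markers 2 of 2 were higher. In the atherosclerotic pair 3 of 5 fibroblast (median 1.07) and 3 of 5 smooth muscle markers (median 1.02) were past 2-fold higher. Their part was not tested.

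Txnrd1 (chr10:82833951-82897712, plus strand), the Nrf2 target thioredoxin reductase, was at 214, 60.2, 152 and 38.1 CPM in members, from 804, 85, 48 and 39 UMIs. Its log2 ratios were -1.83 (-2.17 to -1.504) in the normocholesterolemic pair and -1.995 (-2.64 to -1.36) in the atherosclerotic pair. A UMI was found in 72.0, 32.4, 55.3 and 17.3% of members, so that both libraries labelled Nrf2Cdh5tKO were below both Nrf2flox/flox libraries by level and by share of cells. In other phagocytes the ratios were -1.14 and -0.75. Tnfaip2, a gene induced by tumour necrosis factor, was at 56.6, 5.66, 123 and 12.7 CPM with ratios of -3.32 (-4.55 to -2.32) and -3.28 (-4.31 to -2.34), against -0.73 and -1.26 in other phagocytes. Thbd, thrombomodulin, a brake on clotting, was at 86.9, 29.0, 123 and 20.5 CPM with ratios of -1.58 (-2.09 to -1.11) and -2.59 (-3.43 to -1.79), against 0.65 and 0.40 in other phagocytes. Gadd45g, a stress-response gene, was at 121, 48.1, 149 and 62.5 CPM with ratios of -1.33 (-1.72 to -0.96) and -1.25 (-1.82 to -0.68). In Lyve1-negative C1q-positive macrophages the ratios in the normocholesterolemic and the atherosclerotic pair were -2.51 (-3.20 to -1.89) and -0.86 (-1.28 to -0.44) for Tnfaip2, -1.87 (-2.38 to -1.40) and -1.13 (-1.63 to -0.63) for Txnrd1, -0.52 (-1.95 to 0.68) and 2.74 (0.76 to 5.85, from 2 UMIs in the atherosclerotic Nrf2flox/flox library) for Thbd, and -0.92 (-1.47 to -0.41) and 0.42 (-0.21 to 1.08) for Gadd45g. Lower values of Tnfaip2 and Txnrd1 under the label were thus seen in that set too.

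The other Nrf2 targets did not move together. Gclc was at 35.9, 9.20, 28.5 and 10.7 CPM, with a ratio of -1.96 (-2.91 to -1.14) in the normocholesterolemic pair and under 40 UMIs in the atherosclerotic one. Gclm was at 37.2, 31.1, 38.0 and 26.4 CPM, with a ratio of -0.26 (-0.78 to 0.24) in the normocholesterolemic pair and likewise under 40 UMIs in the other. Hmox1, at 1194, 627, 544 and 580.4 CPM, had ratios of -0.93 (-1.03 to -0.82) and 0.09 (-0.15 to 0.35), since the normocholesterolemic Nrf2flox/flox library stood above the other 3. Nqo1 had 4, 1, 0 and 0 UMIs and was too low to compare. The list of Nrf2 and its targets also holds Nfe2l2 and its inhibitor Keap1. Of its genes with enough UMIs, none was past 2-fold higher and 3 of 18 were lower in the normocholesterolemic pair (median -0.55 beside 0.19 for all genes), and none was higher and 2 of 11 lower in the atherosclerotic pair (median 0.09 beside -0.11). Against the Lyve1-negative set, members were higher in 1 of 18 genes of this list (Hmox1) and lower in 1 (Tkt, -1.26), and Nfe2l2 itself had a log2 fold change of -0.56 (edgeR adjusted p = 0.0133), short of 2-fold.

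The genes past 2-fold higher under the Nrf2Cdh5tKO label in both pairs included Ccl4, Il1b and Nr4a1. Most genes of their lists were not past 2-fold. Inflammatory cytokine genes had 2 higher and 3 lower of 20 in the normocholesterolemic pair (median 0.07 beside 0.19 for all genes). In the atherosclerotic pair they had 2 higher and none lower of 14 (median -0.06 beside -0.11). Chemokines had 2 higher and 3 lower of 18 (median -0.43) and 4 higher and 1 lower of 17 (median 0.41, 14 above 0). Over all genes 5.65% were higher and 2.88% lower in the normocholesterolemic pair, and 4.31% and 3.27% in the atherosclerotic pair. Single cells carried part of the chemokine count in the atherosclerotic pair. Ccl5 had 2.45, but -0.11 without the cell with most of its UMIs in each library. Cxcl10 (4.93) had 89.9% of its UMIs under the label from 1 cell. The lower gene, Cxcl13 (-4.79), had all 128 UMIs of the Nrf2flox/flox library from 1 cell. Ccl4, at 499, 1167, 199 and 980.0 CPM, had ratios of 1.23 (1.13 to 1.32) and 2.30 (1.93 to 2.69). Il1b had 1.63 (1.39 to 1.86) and 1.32 (0.41 to 2.37), and the orphan nuclear receptor Nr4a1, an immediate early gene, had 1.24 and 1.47. The second Il1b ratio rests on few UMIs, since the atherosclerotic Nrf2flox/flox library had 34.8 CPM over 47 members. In that library's diet pair the direction of Il1b depended on the summary. Ube2c, Prc1 and Cenpf, genes of mitosis, were past 2-fold higher too, in a list with 3 higher and 1 lower of 14 cell cycle genes in the normocholesterolemic pair and 5 higher and none lower of 7 in the atherosclerotic pair. They rested on few cells, since Cenpf was found in 2.52, 1.14, 0 and 3.15% of members.

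Some ratios of interferon-stimulated genes depended on single cells. For Rsad2 and Ifit3, the log2 ratios of atherosclerotic over normocholesterolemic members were 2.90 and 2.12 in the Nrf2flox/flox pair and 2.37 and 2.52 in the pair labelled Nrf2Cdh5tKO. In the atherosclerotic Nrf2flox/flox library, 14 of 20 Rsad2 UMIs and 11 of 19 Ifit3 UMIs came from 1 cell for each gene, and without the cell with most UMIs in each library the ratios were 1.46 (-0.11 to 2.77) for Rsad2 and 1.02 (-0.27 to 2.11) for Ifit3. In the library labelled atherosclerotic Nrf2Cdh5tKO, 1 of 127 members held 1665 UMIs of these genes out of its 14977, or 11.1%, while the next member had 1.24% and the median was 0.288%. It held UMIs of all 34 listed genes, together with 10 of Lyve1 and 33 of C1qa. This cell supplied 98.1% of that library's Ifit2 UMIs, 88.0% of Ifit3, 87.9% of Rsad2, 89.9% of Cxcl10 and 72.3% of Isg15.

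Without the 1 member per library with the highest share of interferon-stimulated genes, an alternative chosen after seeing the data, the pair labelled Nrf2Cdh5tKO went from 11 of 31 genes past 2-fold higher and none lower to none higher and 5 lower, and its median from 0.47 to -0.35. The Nrf2flox/flox pair went from 10 higher and 1 lower of 27 to 8 higher and 2 lower, with the median going from 0.88 to 0.41. For the Nrf2Cdh5tKO label, the normocholesterolemic pair had 8 higher and none lower of 27 and then 9 higher and none lower, with medians of 0.79 and 0.81. The atherosclerotic pair went from 10 higher and 2 lower of 28 to 3 higher and 6 lower, with medians of 0.51 and -0.35. Over all genes with all members, 1.17% were higher and 2.13% lower in the diet pair labelled Nrf2Cdh5tKO. In the Nrf2flox/flox pair these shares were 11% and 8.5%. For the label they were 5.65% and 2.88% in the normocholesterolemic pair and 4.31% and 3.27% in the atherosclerotic pair. Of the 14 genes past 2-fold higher in both label pairs, 5 were interferon-stimulated (Cxcl10, Oasl1, Rsad2, Isg15 and Ifih1). In the normocholesterolemic pair their ratios without those cells were 1.84, 1.91, 2.37, 1.28 and 1.40 in this order. In the atherosclerotic pair they went from 4.93, 2.93, 1.84, 2.09 and 1.58 to 1.60, 0.60, -1.17, 0.92 and 0.68, and of these the interval of Rsad2 alone leaves out 0. In both pairs that include the library labelled atherosclerotic Nrf2Cdh5tKO, the median thus changed its sign without single cells.

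**Figure D5:**
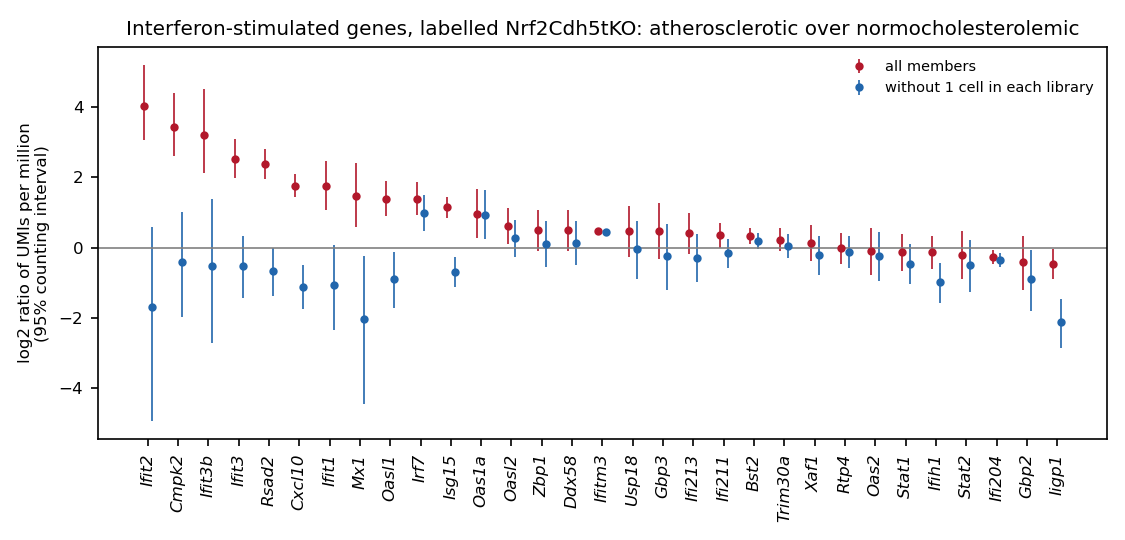
Log2 ratio of each interferon-stimulated gene in members, library labelled atherosclerotic Nrf2Cdh5tKO over the library labelled normocholesterolemic Nrf2Cdh5tKO, with all members and without the 1 member per library with the highest share of these genes. With all members 11 of 31 genes are past 2-fold higher, and without that cell none is.

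The promoters of these genes hold the interferon-stimulated response element more often than others. The letters GAAA, any 2 bases and GAAA again, on either strand, were found in the 300-base promoters of 18 of 26 listed genes (69.2%), against 3.99% of genes in the table and 0 of the 12 named genes that were higher in members against either set. The windows below belong to genes that this 1 cell carried, with the match in capitals on the strand of the gene. They lie at chr19:34583363-34583392 for Ifit3, 156 to 147 bases before the start, chr12:26456553-26456582 for Rsad2, 120 to 111 bases before it, and chr4:156200865-156200894 for Isg15, 66 to 57 bases before it.
Ifit3: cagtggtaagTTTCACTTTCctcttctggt
Rsad2: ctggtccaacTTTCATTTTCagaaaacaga
Isg15: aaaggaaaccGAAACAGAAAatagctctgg

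RNA of other cell types in members was low for most lists. T and NK cell markers summed to 38.0, 134, 34.8 and 13.7 CPM. Blood endothelial markers summed to 15.1, 18.4, 31.7 and 29.3 CPM (Cdh5 at 0 by the rule). Neutrophil markers came to 95.7, 24.8, 98.1 and 17.6 CPM (S100a9 making 50% of it). Monocyte markers came to 83.2, 50.3, 69.6 and 51.8 CPM (Treml4 at 0) and dendritic cell markers to 106, 92.02, 149 and 143 CPM (Clec9a and Flt3 at 0). Lymphatic endothelial markers summed to 191, 186, 212 and 165 CPM, of which Nrp2, also expressed by macrophages, made 95.7%. By comparison the members' own 5 markers summed to 3933, 4675, 5824 and 4983 CPM. The part of this RNA in the differences between libraries was not tested.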

How the data were processed

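The values the authors deposited are whole UMI counts per gene and cell barcode, not normalized. Per the submitters' processing notes and the methods, 10x Chromium 3′ reads were mapped to mm10 and counted with Cell Ranger 6.1.2. The counts cover 31053 genes and 15599 barcodes. Filters were the study's (200 to 6000 genes, at most 15% mitochondrial UMIs). No author annotation of cells was used. The members, gene lists and tests were chosen with earlier results of these data known, and some lists were taken over from an earlier analysis of them. Of 446 listed symbols, 443 were found. Of the others, none was analysed here. A treatment of the mice and some listed genes are not reported here.

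UMIs were summed per library over members and over each comparison set and tested with edgeR 4.0.16 in R 4.3.3 (quasi-likelihood, TMM, library as block). DESeq2 1.42.0 was an alternative. Genes of the rule were fitted but given no call. Named genes were, for each comparison, the 12 highest and 12 lowest called log2 fold changes with the same sign in every library and at least 50 CPM in the higher set. Between libraries they were the 6 genes in each direction whose interval bound lay farthest from 0, and those past 2-fold in both pairs. Nfe2l2, Nqo1, Gclm and listed genes were added. On simulated counts with 100 genes changed per size, the edgeR step recovered 88% of changes of log2 1.5 and 89% of log2 2 among 9541 genes for other phagocytes, and 87% and 92% among 7328 genes for the Lyve1-negative set. Both sums of a library came from 1 pool of mice, and their deviations correlated at 0.120 to 0.443 for other phagocytes and 0.137 to 0.518 for the Lyve1-negative set. Intervals are exact binomial or Clopper-Pearson at 95% and cover counting error only. Other steps ran in scanpy 1.11.5, scipy 1.17.1, matplotlib 3.10.9, pandas 2.3.3 and numpy 2.4.6 under Python 3.11.15. Positions come from GENCODE M21 (GRCm38) and promoters from RefSeq. Alternatives were other scalings, filters, limits on Lyve1, mitochondrial share, doublets and depth, and each library left out. Those on Ptprc, single cells, thinned Lyve1 bins and cavity markers were added after seeing the data.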

Additional observations from a re-analysis of the deposited data

Results flagged for a closer look

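For the genes below the 2 pairs of libraries went past 2-fold in opposite directions. Each difference between pairs was not tested, since there was 1 library per condition, and the diet and the label difference of a gene are the same contrast of 4 libraries. The first ratio is that of the Nrf2flox/flox pair for diet or of the normocholesterolemic pair for label, and all are log2.

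For diet, the cavity macrophage markers Fn1 and Retnla, together with S100a4 and Cd9, were lower in the Nrf2flox/flox pair and higher in the pair labelled Nrf2Cdh5tKO. Fn1 had -2.47 and 1.41 (difference -3.88; other phagocytes 0.14 and 0.98; without the cell with most of its UMIs in each library -2.50 and 0.79). S100a4 had -2.04 and 1.48 (difference -3.52), Cd9 -2.88 and 1.15 (difference -4.02) and Retnla -1.32 and 1.05 (difference -2.37, and -1.70 and 0.97 without such cells). The share of members with a UMI of Lyz1, Ear2 or Fn1 moved with them (51.0%, 15.9%, 14.9% and 20.5%), and its part was not tested. Slc40a1, ferroportin, had 2.25 and -2.10 (difference 4.36), and in other phagocytes 0.32 and -2.33. Gm26778 had 3.74 and -1.495 (difference 5.23), and Nme2 -1.36 and 2.72 (difference -4.08).

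For label, Lyz1 had -1.76 and 2.55 (difference -4.31), S100a10 -1.88 and 1.19 (difference -3.07), S100a4 -2.24 and 1.28 (difference -3.52), Cd9 -1.45 and 2.57 (difference -4.02) and the fibroblast gene Dcn -2.003 and 1.24 (difference -3.24). Iigp1 had 2.53 and -1.72 (difference 4.24). Ccl5 had -2.19 and 2.45 (difference -4.64), but -1.07 and -0.11 without the cell with most of its UMIs in each library, and Dcn had -1.75 and 0.50. In other phagocytes of the normocholesterolemic pair the ratio was also past 2-fold the same way for Lyz1 (-2.67), S100a10 (-1.41), S100a4 (-1.38), Iigp1 (1.37), Ccl5 (-2.48) and Nme2 (-2.32), and not for Cd9 (-0.19) and Dcn (0.15). Other phagocytes of that pair were past 2-fold the same way too for Ccdc152 (3.07 and -1.14, difference 4.21, other phagocytes 2.80 and 0.03), Gm15655 (3.31 and -1.43, difference 4.74, other phagocytes 3.98 and -0.39), Gm26669 (1.94 and -1.12, difference 3.05, other phagocytes 2.11 and -0.38) and Gm26778 (3.73 and -1.4999, difference 5.23, other phagocytes 2.88 and -0.66). Nme2 had -2.99 and 1.09 (difference -4.08).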

How the results depend on the processing

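Counts of called genes against other phagocytes and against the Lyve1-negative set stayed within 1.5 times under DESeq2 (510 higher and 1051 lower, and 251 and 278), another scaling (529 and 1123, and 271 and 325) and a fit with no replicate block (552 and 989, and 251 and 276). Without a filter on low counts, which adds genes, 1833 and 533 were lower. Leaving out each library in turn gave 556 to 612 higher and 1029 to 1227 lower against other phagocytes, and 276 to 339 higher and 301 to 358 lower against the Lyve1-negative set. The share of members among phagocytes was 46.1% over all libraries with Lyve1 at 1 UMI or more (43.8%, 55.4% and 48.2% in all but the atherosclerotic Nrf2flox/flox library), 37.6% with 3 or more, 38.0% with a Ptprc UMI required and 44.5% with cells thinned to 5000 UMIs (46.4% in the normocholesterolemic Nrf2flox/flox library). With a minimum of 20 or 80 UMIs over the pair, genes past 2-fold numbered 2222 or 860 for diet in the Nrf2flox/flox pair, 543 or 76 in the pair labelled Nrf2Cdh5tKO, and 1125 or 382 and 729 or 133 for label in the normocholesterolemic and atherosclerotic pair, since fewer or more genes are compared. Without cells holding Lyz1, Ear2 or Fn1, 77 named or listed genes called against the Lyve1-negative set kept their call, 19 no longer passed, and S100a4 went to 0.084 and Retnla to 2.74. By the mean over cells, Il1b in the Nrf2flox/flox diet pair went to 0.16 and Hist1h2ae in the pair labelled Nrf2Cdh5tKO to 0.32; the cause was not tested. Without the cell with most of its UMIs in each library, the diet ratio in the pair labelled Nrf2Cdh5tKO went to -1.53 for Ifit2, -0.31 for Cmpk2, -0.12 for Ifit3b, -0.41 for Ifit3, -0.51 for Rsad2, -0.95 for Ifit1, -1.12 for Cxcl10, -0.58 for Isg15 and -0.57 for Oasl1, and the label ratio in the atherosclerotic pair to -1.70 for Ifit2 and -0.53 for Ifit3. The 47 members of the atherosclerotic Nrf2flox/flox library limit what can be seen of low genes there.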

Other observations

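Ighm, the immunoglobulin mu chain, was at 146, 279.6, 158 and 185 CPM in members and 70.6, 214, 84.7 and 90.2 CPM in other phagocytes, and made 93.4% of the UMIs of the B cell list in members. Other B cell genes were rare, with Cd79a at 18, 0, 0 and 1 UMIs and Ms4a1 at 2, 1, 0 and 0 UMIs. Cxcl13, which attracts B cells, had 76, 39, 128 and 15 UMIs in 3.92, 4.55, 2.13 and 4.72% of members, so that few cells carried it in each library. In MHC class II the libraries differed among themselves, with medians of 104, 35.7, 100.4 and 58.8 UMIs of H2-Aa, H2-Ab1, H2-Eb1 and Cd74 per 10000 in members and 576, 326, 482 and 307 in Lyve1-negative C1q-positive macrophages, and the order of the 4 libraries was nearly the same in both sets. By these medians over cells, both libraries labelled Nrf2Cdh5tKO were below both Nrf2flox/flox libraries in each set, which was not tested. Summed UMIs in members did not show this order in the atherosclerotic pair, where H2-Aa was at 3388 CPM in the library labelled Nrf2Cdh5tKO and 3194 in the Nrf2flox/flox library, and 7 of 8 genes of MHC class II and co-stimulation had a ratio above 0 (median 0.15 beside -0.11 for all genes).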
